A study of Mus musculus with 2 samples.

Results

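Ighd-positive B cells were examined in the tissue around a healing skull defect. The cells were chosen by measured values: at least 4 UMIs (counted transcript molecules) of Cd79a and Cd79b together, which encode the signalling pair of the B cell receptor, at least 1 UMI of Ighd, the IgD heavy chain constant region, and fewer than 3 UMIs of Vpreb1, Igll1 and Dntt together, genes of earlier B cell precursors. Cells with 50 or more Jchain UMIs, with 5 or more Siglech UMIs, with 3% or more of UMIs from S100a8 and S100a9, or with 1% or more from the collagen genes Col1a1, Col1a2 and Col3a1 were left out. This rule took 396 of the 17129 cells within the quality limits, 194 from the gambogic amide (GA) library and 202 from the control library. Ighd, the receptor pair and the 3 precursor genes are therefore given as a description and support nothing.

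Both groups were C57BL/6 male mice of 2 months with a 1.8 mm frontal bone defect, and 5 mice were pooled in each library. GA, a small molecule agonist of a neurotrophin receptor, was injected intraperitoneally at 1.2 mg/kg in 100 µL of 10% DMSO, starting 24 h before injury and then daily for 1 week; control mice received the DMSO vehicle on the same schedule. Tissue was taken 7 days after injury with a 3 mm edge, digested with enzymes and sequenced as single cells by a 3′ droplet method that counts UMIs. With 1 library per condition no difference between GA and control could be tested. The intervals given are 95% intervals for counting error only, which do not cover differences between mice or digestions. Intervals of levels and ratios from summed UMIs also leave out differences between cells, so a few cells can move a value outside its interval.

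B cells are made in the bone marrow, where Rag1 and Rag2 cut and rejoin the immunoglobulin genes, first the heavy chain in pro-B cells and then a kappa or lambda light chain in pre-B cells that have divided. An immature B cell carries IgM, and IgD joins it by alternative splicing of the same long transcript as the cell matures, when Ms4a1 (CD20), Fcer2a (CD23), Cr2 (CD21), the follicle homing receptor Cxcr5 and the MHC class II genes increase. Mature follicular B cells circulate through blood, spleen and lymph nodes and also return to the marrow, so that a bone sample can hold both newly made and recirculating B cells.

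The GA library held 9322 barcodes and 182949385 UMIs and the control library 8718 barcodes and 214993030 UMIs. The 2 libraries shared 23 barcodes, none of them among the selected cells. Selected cells carried a median of 5606 UMIs (2323 to 32236) and 2155 genes in the GA library and 5240.5 UMIs (1706 to 93262) and 2079.5 genes in the control library. Ighd-positive B cells made up 2.15% (Clopper-Pearson interval 1.86 to 2.47) of GA cells and 2.50% (2.17 to 2.86) of control cells, a ratio of 0.860 (log-normal interval 0.708 to 1.05). Of all cells that passed the Cd79a and Cd79b limit they were 29.3% of 661 in GA and 32.2% of 627 in control, with a ratio of 0.911 (0.773 to 1.07). The intervals of both ratios include 1, and pooled mice leave the spread between animals unknown.

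The Ighd limit sat in the middle of a continuous range. Among late B cells, those that met every limit except the one on Ighd, 246 GA and 249 control cells had no Ighd UMI, 94 and 96 had 1, 39 and 45 had 2, and 61 in each library had 3 or more, up to 12 in GA and 11 in control. On the receptor limit, 1 GA cell and no control cell lay just outside at 3 UMIs, while 1 and 2 lay just inside at 4. On the precursor limit, 4 GA cells and 1 control cell were just inside at 2 UMIs, and 7 and 2 just outside at 3. Free RNA gave little Ighd: of neutrophil-like cells without Cd79 UMIs, 10 of 4645 in GA and 3 of 1983 in control carried an Ighd UMI, at median depths of 7388 and 5547 UMIs.

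The name mature B cell fitted a portion of these cells. Pax5, the transcription factor that keeps B cell identity, was found in 93.3% of GA and 92.1% of control cells. Ms4a1 was found in 53.1% (45.8 to 60.3) and 60.9% (53.8 to 67.7), Fcer2a in 28.4% and 29.7%, and Cr2 in 13.4% and 18.3%, against no more than 4 neutrophil-like cells with Ms4a1 in either library. Genes of precursors were also frequent: Rag1 was found in 29.9% and 24.8%, the proliferation gene Mki67 in 22.7% and 22.8%, Il7r, the interleukin-7 receptor of pro-B and pre-B cells, in 43.8% and 35.6%, and the surrogate light chain relative Vpreb3 in 83.5% and 76.2%. Of these, Mki67 was also found in 13.1% and 14.4% of neutrophil-like cells. With each cell thinned to 2000 UMIs, leaving out 1 control cell, the shares were 41.8% and 45.8% for Ms4a1, 17.0% and 19.9% for Fcer2a, 16.0% and 12.4% for Rag1, and 19.1% and 15.4% for Mki67. The cells are therefore called Ighd-positive rather than mature.

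The cells could be separated into 3 states by genes outside the rule, with limits set after the values were seen. Cells with at least 5 UMIs over 11 division genes were counted as dividing, the remaining cells with at least 1 Rag1 or Rag2 UMI as Rag-positive, and the rest as neither. Dividing cells were 43 of the GA cells (22.2%) and 45 of the control cells (22.3%), Rag-positive cells 38 (19.6%) and 32 (15.8%), and cells of the neither state 113 (58.2%) and 125 (61.9%). The division limit fell in a gap, with 1 GA and 2 control cells at 3 or 4 UMIs and 2 and 0 at 5 or 6. Dividing cells were larger, with medians of 14197 and 12452 UMIs against 5345 and 5303.5 in Rag-positive and 5034 and 4690 in neither cells, and held 43.8% and 45.1% of the UMIs of Ighd-positive B cells.

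Mature genes lay in the neither state in both libraries. Ms4a1 was found in 83.2% (74.99 to 89.6) of GA and 84.8% (77.3 to 90.6) of control cells of this state, in 13.2% and 21.9% of Rag-positive cells and in 9.30% and 22.2% of dividing cells. Fcer2a was found in 46.9% and 47.2% of neither cells, in 1 of 38 and 0 of 32 Rag-positive cells, and in 1 cell among the dividing cells of each library. Summed over cells, Fcer2a stood at 178 (Poisson interval 145 to 215) and 192 (161 to 227) CPM (UMIs of the gene scaled to an equal total) in neither cells, against 6.27 (1.71 to 16.1) and 1.41 (0.0356 to 7.84) in dividing cells. Cxcr5 was found in 48.7% and 48.0% of neither cells but in 0% and 3.12% of Rag-positive and 4.65% and 15.6% of dividing cells. It was also found in 13.0% and 8.47% of neutrophil-like cells, and the part of free RNA in its low shares was not tested. Cr2 was found in 22.1% and 25.6% of neither cells, against 0 Rag-positive cells in either library and 2.33% and 11.1% of dividing cells.

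MHC class II transcripts were present in every state but at different levels. Cd74, the invariant chain that escorts class II molecules, reached 9329 CPM (9086 to 9578) in GA and 8121 (7911 to 8335) in control cells of the neither state, 1128 (993 to 1276) and 881 (744 to 1036) in Rag-positive cells, and 694 (631 to 762) and 1413 (1327 to 1504) in dividing cells, where 5 cells held 60.5% and 71.6% of its UMIs. H2-Aa, the I-A alpha chain, was found in 75.2% and 84.8% of neither, 36.8% and 28.1% of Rag-positive, and 74.4% and 64.4% of dividing cells. These shares were not adjusted for the greater depth of dividing cells. By level, H2-Aa was at 2471 and 2123 CPM in neither, 175 and 235 in Rag-positive, and 226 and 460 in dividing cells. In dividing cells 5 cells held 48.6% and 67.3% of its UMIs.

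Precursor genes had the opposite pattern. Vpreb3 was found in each of the 38 and 32 Rag-positive cells, at 2746 CPM (2532 to 2972) and 2884 (2632 to 3155), and in 71.7% and 64.0% of neither cells at 1077 and 826 CPM. Il7r was found in 94.7% and 56.2% of Rag-positive, 88.4% and 86.7% of dividing, and 9.73% and 12.0% of neither cells. Cd93, a marker of immature B cells, was found in 19 of 38 and 12 of 32 Rag-positive and in 81.4% and 55.6% of dividing cells, against 13.3% and 16.8% of neither cells, but it was also found in 26.3% and 24.9% of neutrophil-like cells and so is not specific to B cells here. The low Cd93 share of neither cells lay below that of the neutrophil-like cells.

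**Figure D1:**
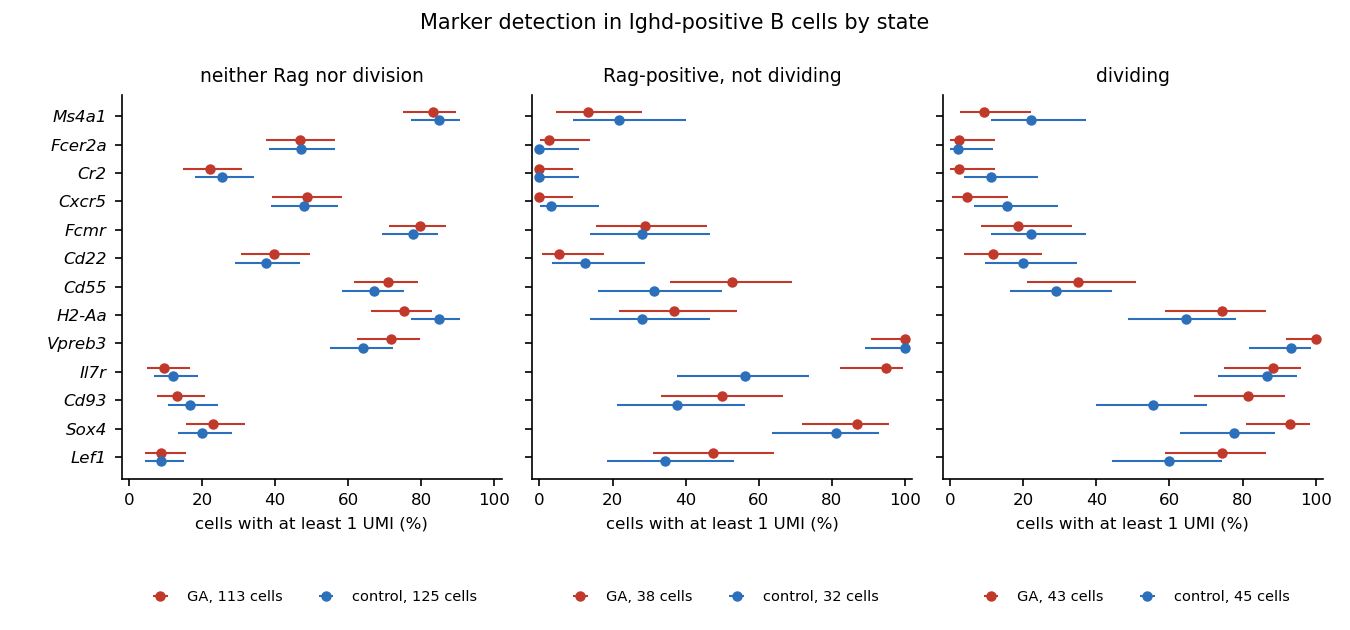
Percent of Ighd-positive B cells with at least 1 UMI of each of 13 genes, by state and library, with exact 95% binomial intervals for counting error. In both libraries Ms4a1, Fcer2a and Cxcr5 were most frequent in the neither state, and Vpreb3 and Il7r were frequent in the Rag-positive and dividing states.

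Within single cells, Fcer2a was seldom found with Rag1, Il7r or Mki67 but often with Vpreb3. Of the 55 GA and 60 control cells with an Fcer2a UMI, 48 and 54 carried Ms4a1 and 23 and 21 carried Cr2, and all of them in both libraries carried Cd74. Rag1 was found in 1 and 0 of these cells, Il7r in 1 and 0, and Mki67 in 2 and 1, while Vpreb3 was found in 38 and 30. Cells without Fcer2a were mixed: Ms4a1 was found in 39.6% and 48.6% of them, Rag1 in 41.0% and 35.2%, and Il7r in 60.4% and 50.7%. Because a missing UMI does not show that a transcript was absent, these shares depend on the depth of each cell.

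Levels by the number of Ighd UMIs per cell are given as a description, since Ighd chose the cells. Fcer2a stood at 1.78 CPM (0.715 to 3.66) in GA late B cells with no Ighd UMI, and at 28.4, 103 and 138 (106 to 177) CPM in cells with 1, 2 and 3 or more Ighd UMIs. In the control library the Fcer2a values were 9.42 (5.67 to 14.7), 23.6, 72.2 and 211 (170 to 259). Cd74 went from 472 to 2511, 4932 and 6819 CPM in GA cells and from 1309 to 2991, 4123 and 6970 CPM in control cells. Both genes had higher values at each further step of Ighd in both libraries.

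The CPM of the precursor gene Vpreb3 did not follow a single direction along the same steps in the 2 libraries. Vpreb3 was at 1053, 2405, 1720 and 1039 CPM in GA and at 2042, 1930, 1510 and 521 CPM in control cells, so that its level at 3 or more Ighd UMIs was near the Ighd-negative level in GA and below it in control. With cells thinned to 2000 UMIs, Vpreb3 was found in 70.6% of Ighd-positive against 82.1% of Ighd-negative late B cells in GA and in 66.2% against 86.7% in control. Rag1 was found in 16.0% against 25.6% and in 12.4% against 21.3%, so that both genes had lower shares in Ighd-positive cells of both libraries at equal depth. The share of late B cells that were Ighd-positive was 60.4% and 56.6% in the neither state, 29.9% and 28.6% in the Rag-positive state and 34.1% and 38.1% in the dividing state. Of Ighd-positive cells, 41.6% and 44.8% of neither cells had 3 or more Ighd UMIs, against 10.5% and 3.13% of Rag-positive and 23.3% and 8.89% of dividing cells. These Ighd counts were not adjusted for the greater depth of dividing cells.

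**Figure D2:**
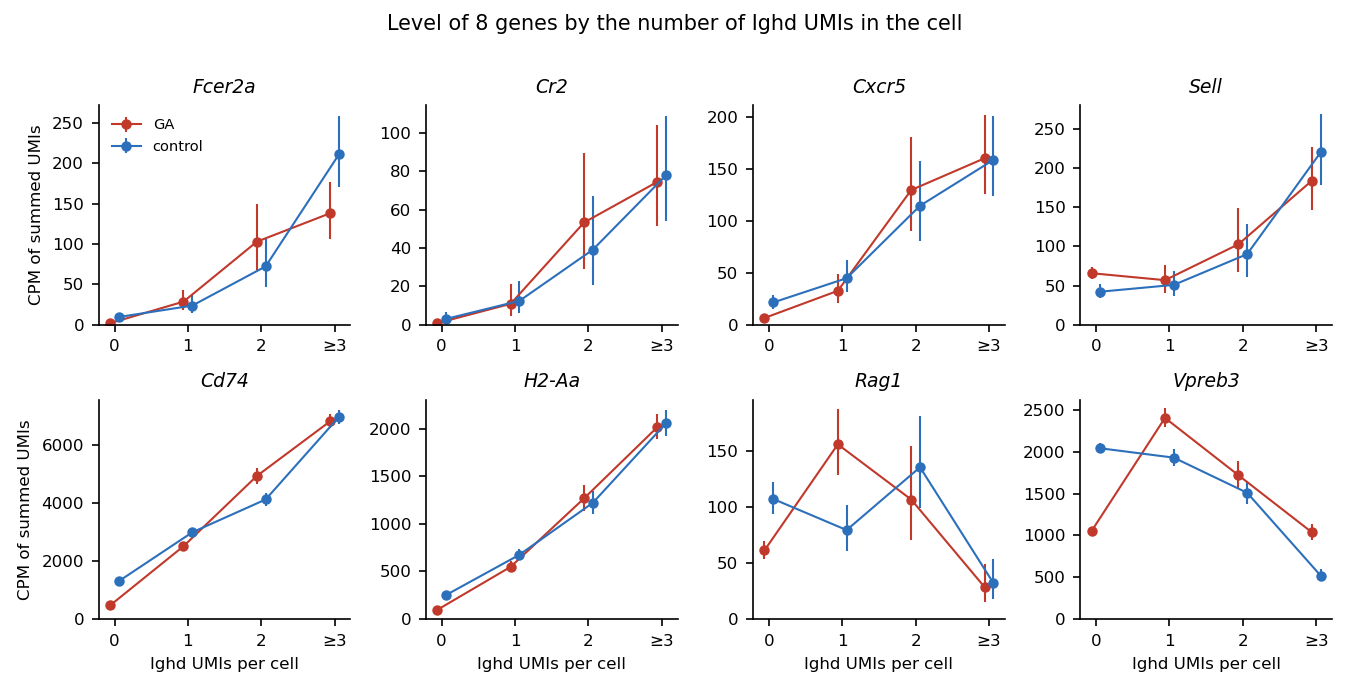
Level in CPM of 8 genes in late B cells grouped by the number of Ighd UMIs per cell, for each library, with exact Poisson 95% intervals. In both libraries Fcer2a, Cr2, Cxcr5, Cd74 and H2-Aa were higher at each step from 0 to 3 or more Ighd UMIs, while Rag1 and Vpreb3 were not.

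IgM transcripts accompanied IgD in nearly all cells. Ighm, the IgM constant region (GRCm38, chr12:113418558-113422730, minus strand, next to Ighd at chr12:113406604-113416324), was found in 192 of 194 GA and 202 of 202 control cells, against 26.2% and 29.2% of neutrophil-like cells. Class-switched transcripts were seldom detected: no cell had a UMI of Ighg1, Ighg2c or Ighe, which allows a share of cells with a UMI of up to 1.88% in GA and 1.81% in control (Clopper-Pearson upper limits). This limits detection at the depth of these cells, not the share of cells with the transcript. Igha was found in 9 and 4 cells, Ighg2b in 4 and 2, and Ighg3 in 0 and 1, with no background share taken for them, so these few cells are not read as switched. The ratio of Ighm to Ighd UMIs, both counted once per molecule at the 3′ end, was 8.38 in GA and 7.21 in control, and differed by state: 5.62 and 4.43 in neither cells, 14.9 and 14.1 in Rag-positive cells, and 14.9 and 18.0 in dividing cells. Since at least 1 Ighd UMI was required of each cell, the rule itself lowers this ratio where Ighd is sparse. Ighd exceeded Ighm in 13 and 15 cells.

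Plasma cell genes differed in the number of cells with a UMI. Prdm1, the plasma cell regulator, was found in 3 GA and 7 control cells, and 1 dividing control cell held 32 of its 42 control UMIs. Sdc1 (CD138) was found in 20 and 21 cells, and Xbp1, a regulator of secretion, in 32 and 40. Tnfrsf17, the plasma cell survival receptor BCMA, had no UMI in either library. These counts are given without a background share and are not read as expression. The 18 plasma cell genes examined had 2046 and 2056 UMIs together, and Sec11c, of the signal peptidase, was the most abundant. The 9 neurotrophin receptors and ligands examined had 9 UMIs together in each library.

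Transcripts of both light chain types were counted in many of the same cells. A mature B cell usually keeps a single light chain, kappa (Igkc, chr6:70726435-70726966, plus strand) or lambda (Iglc1, Iglc2 and Iglc3 on chromosome 16). A cell with at least 10 light chain UMIs was called kappa or lambda when 90% or more of them were of that type, and mixed otherwise. Of 179 GA and 175 control cells, 47.5% (40.0 to 55.1) and 42.9% (35.4 to 50.5) were kappa, 6.15% and 4.57% lambda, and 46.4% (38.9 to 54.0) and 52.6% (44.9 to 60.2) mixed. The mixed share was 59.5% and 63.5% in the neither state, 46.7% and 54.2% in the Rag-positive state and 7.89% and 16.7% in the dividing state.

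Mixed cells carried more than single lambda UMIs. They had medians of 33 kappa and 11 lambda UMIs in GA and 28 and 9.5 in control, and lambda was a median 25.8% (quartiles 16.2 to 36.9) and 26.3% (15.8 to 36.9) of their light chain UMIs. Neutrophil-like cells of the same libraries held 48 Iglc3 UMIs over 4645 cells and 7 over 1983. Mixed cells had medians of 4744 and 4681.5 UMIs in all and 45 and 40 light chain UMIs, against 6281 and 6273 and 25 and 26 in kappa cells, which held most of the deep dividing cells. The mixed share was 46.9% and 52.4% without the cells of the highest doublet scores, and the part of doublets was not tested further. In mixed cells Iglc3 was found in 75 and 84, Iglc2 in 64 and 78, and Iglc1 in 52 and 56 of 83 and 92 cells, and Ms4a1 was found in 75.9% and 83.7% of mixed against 34.1% and 42.7% of kappa cells.

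The mixed share depends on the limits used. With 75% in place of 90% it was 22.3% and 24.6%. Ighd-negative late B cells were mixed in 25.8% and 26.2% and early B cells in 7.89% and 0%, by the 90% limit. The 3 Iglc copies are nearly identical in places, so the split among them is uncertain, and constant region UMIs do not show which V gene was joined or whether the transcript was productive; neither was tested.

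**Figure D3:**
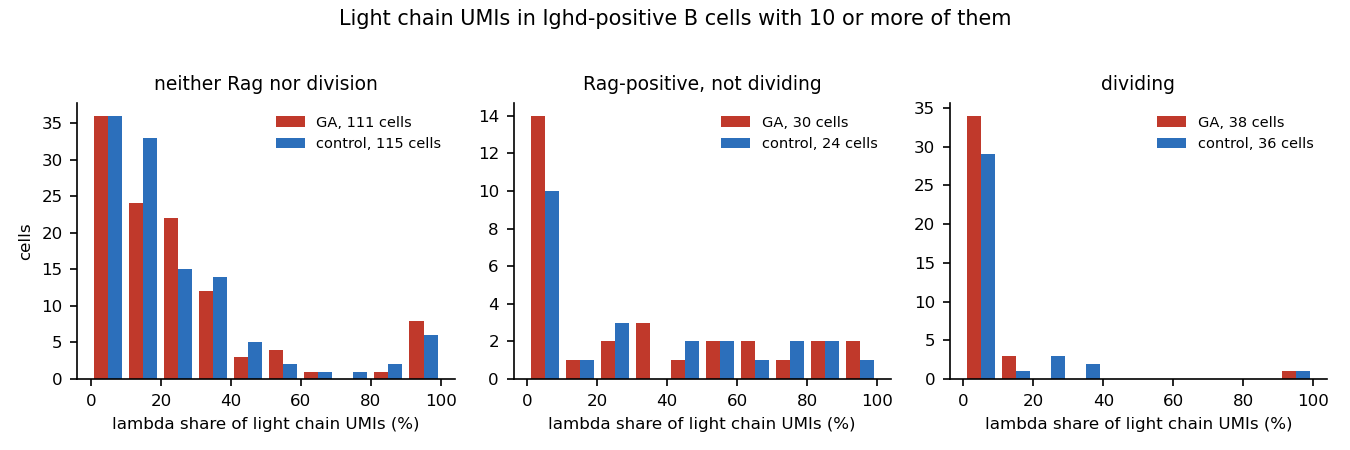
Lambda share of light chain UMIs per cell, in bins of 10%, for Ighd-positive B cells with at least 10 light chain UMIs, by state and library. Dividing cells lay mostly in the lowest bin, and neither and Rag-positive cells spread over the bins between kappa and lambda.

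MHC class II genes set Ighd-positive apart from Ighd-negative late B cells in both libraries. The comparison is descriptive, since Ighd chose the groups and each library gives a single value. Of the UMIs of Ighd-negative cells, 83 dividing cells held 2990588 of 3937434 in GA, and 73 held 1001682 of 2017906 in control. The GA levels of Ighd-negative cells therefore rest largely on those dividing cells, and the part of this in the ratios was not tested. Of 8342 genes with at least 100 UMIs and not in the rule, 132 (1.58%) were higher by 2-fold or more in both libraries and 213 (2.55%) were lower; the medians over all of them were 0.03 in GA and -0.06 in control on the log2 scale. Of the 13 genes of class II presentation, 8 were higher in both libraries and 0 lower, with list medians of 2.64 and 1.69. H2-Eb1, the I-E beta chain, was at 836 against 55.9 CPM in GA, a log2 ratio of 3.90 (3.69 to 4.12), and at 909 against 159 CPM in control, 2.52 (2.34 to 2.70). H2-Aa differed by 3.55 and 2.21, and Cd74 by 3.19 and 1.73. The peptide editors H2-DMb2 and H2-Oa differed by 3.58 and 2.19 and by 3.28 and 1.90, while Ciita, the class II transactivator, differed by 2.64 in GA and 0.96 (0.47 to 1.45) in control, short of 2-fold.

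The start sites of class II genes carry a conserved set of boxes, of which the Y box holds an inverted CCAAT element. Windows from 250 bases before to 50 bases after the start, from RefSeq on GRCm38.p6, were searched on both strands for the letters CTGATTGG, because most class II genes were higher in both libraries. Of 9 list genes with a window, 3 held them, H2-Aa, H2-Eb1 and H2-Oa, against 1346 of 32851 windows (4.10%). The shorter GATTGG, which lies within the longer one, was in 7 of the 9 and in 5292 windows (16.1%). A stretch of 100 bases upstream of the start of each of the 3 genes is shown with CTGATTGG in capitals, which begins 51, 62 and 46 bases before the start. The stretches of H2-Aa and H2-Oa end on the base before the start and that of H2-Eb1 ends a few bases further upstream; they are chr17:34287824-34287923 (minus strand), chr17:34305759-34305858 and chr17:34092279-34092378 (plus strand).
H2-Aa: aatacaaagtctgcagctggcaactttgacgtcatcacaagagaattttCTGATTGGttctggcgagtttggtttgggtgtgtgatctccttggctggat
H2-Eb1: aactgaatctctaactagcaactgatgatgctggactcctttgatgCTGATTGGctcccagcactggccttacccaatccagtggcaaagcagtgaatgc
H2-Oa: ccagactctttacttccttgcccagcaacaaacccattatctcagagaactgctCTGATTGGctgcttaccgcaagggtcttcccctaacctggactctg
A match of letters is a description of the window and was not tested for binding.

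Mature B cell, follicular and trafficking genes also differed, with the limit given above for the GA levels of Ighd-negative cells. Of 16 mature B cell markers, 10 were higher by 2-fold or more in both libraries, with medians of 2.43 and 1.25. Of 17 follicular B cell genes, 11 were higher by 2-fold or more in both libraries, with list medians of 1.90 and 1.42. The share of cells in the neither state differed between the groups. With neither cells alone on both sides, 7 of 16 mature markers and 8 of 17 follicular genes were higher in both libraries, and 10 of 13 class II genes. Cr2 differed by 5.66 (4.03 to 7.98) and 3.61 (2.40 to 5.11), Fcer2a by 5.42 and 3.19, Cxcr5 by 3.82 and 2.09, and Fcmr, the IgM receptor, by 2.90 and 1.42. Of 16 trafficking receptors and integrins, 5 were higher in both, among them Gpr183, which guides B cells within the follicle, at 1.90 and 2.41, and S1pr1, the egress receptor, at 1.63 and 1.07; without cells of 20 or more Lyz2 UMIs the count was 3 of 16. Of 24 BCR signalling genes, 4 were higher in both libraries, with list medians of 0.99 and 0.32. Among them Cd22, an inhibitory co-receptor, differed by 2.06 (1.56 to 2.58) and 1.16 (0.65 to 1.69), and Malt1 by 1.53 and 1.21.

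Pro-B, pre-B, transitional and immature genes gave no such count. The rule had limited Vpreb1, Igll1 and Dntt in both groups, and these genes were left out, so a low count was favoured in advance. At equal depth Rag1 and Vpreb3 had lower shares in Ighd-positive cells of both libraries, as given above. Of 10 pro-B and pre-B genes, 0 were 2-fold higher or lower in both libraries, with medians of 0.81 in GA and -0.39 in control, and the 15 transitional and immature genes had 0 as well, with 0.72 and -0.45. The opposite signs accompany a difference between the Ighd-negative cells, which held 3937434 UMIs in GA and 2017906 in control, and its part in the signs was not tested.

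Outside the lists, Rapgef4, Gimap3, Gimap4, Trim7 and March1, a ubiquitin ligase of class II molecules, were among the 10 highest genes. March1 was at 127 against 8.64 CPM in GA and 114 against 16.4 CPM in control. Hbb-bt, Hba-a1 and Hbb-bs, which encode haemoglobin chains, were in the same 10, with 4 of 5 erythroid markers higher in both libraries, and these 3 genes turned to -0.84, -1.54 and -0.63 in the smaller of their 2 log2 ratios when the cells with the highest doublet scores were left out. The 10 lowest were granule genes of neutrophil precursors (Mpo, Ctsg, Elane, Prtn3 and Ms4a3), macrophage genes (Cd5l, Slc40a1, Itgad and Mertk) and Nkg7. Mpo had 8088 UMIs in 37 GA and 806 UMIs in 7 control Ighd-negative cells, against 5 and 1 UMIs in Ighd-positive cells. Of 15 macrophage and monocyte markers, 9 were lower in both libraries, beside 2.55% of all genes; without cells of 20 or more Lyz2 UMIs the count was 3 of 9, and Slc40a1 and Itgad no longer had the same direction in both libraries. The part of other cell types in these low values was not tested.

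**Figure D4:**
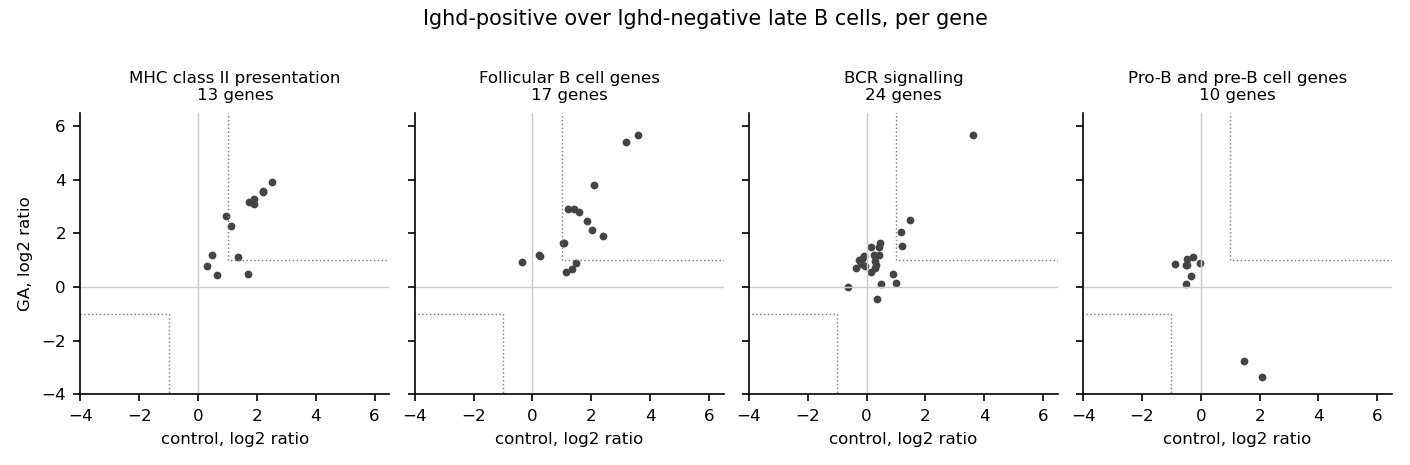
Log2 ratio of Ighd-positive over Ighd-negative late B cells per gene, control library on the horizontal and GA library on the vertical axis, for 4 gene lists, with dotted lines at 2-fold. Class II presentation and follicular genes lay mostly beyond 2-fold in both libraries, and the pro-B and pre-B genes had medians of 0.81 in GA and -0.39 in control.

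The most variable genes among Ighd-positive B cells included class II, division and light chain genes. Pearson residual variance, which is near 1 for a gene that varies as counting error alone would give, had a median of 1.19 in GA and 1.23 in control over 8357 genes, and 735 genes exceeded 2 in both. The 8 most variable genes were Cd74 (39.5 and 36.0), Hmgb2, a chromatin gene of dividing cells (24.9 and 25.8), Igkc (25.8 and 23.4), Hist1h2ap, a replication-dependent histone (19.6 and 21.6), Malat1 (19.003 and 19.999), Bank1, a B cell receptor adaptor (16.1 and 17.7), H2-Aa (17.6 and 15.3) and Iglc1 (18.3 and 14.8). At a theta of 10 in place of 100, 6 of these 8 genes and 19 of the first 30 were shared; Hmgb2 and Malat1 left the 8, and Malat1 also left the 30. Bank1 was at 1939 and 1899 CPM in neither cells against 103 and 181 in Rag-positive and 68.9 and 110 in dividing cells. Malat1, a nuclear RNA, was at 20745 and 18947 CPM in neither and 8237 and 8079 in dividing cells, and at 22366 and 21495 CPM in Rag-positive cells. The Iglc1 variance rested on few cells, 5 of which held 48.3% of its UMIs in GA and 45.4% in control.

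Between GA and control, Cd74, Ms4a1 and Fcer2a stood close together. The germinal centre and B-1 lists lay further apart, with median log2 ratios of -0.85 and -0.73, given under other observations. Cd74 had 4296 CPM in GA and 4331 in control, a log2 ratio of -0.01 (-0.06 to 0.04). Ms4a1 had 466 and 454 CPM, 0.04 (-0.12 to 0.19), and Fcer2a 76.2 and 85.7 CPM, -0.17 (-0.55 to 0.20). None of these intervals reached 2-fold. Ighm was at 2626 and 2290 CPM, 0.20 (0.13 to 0.26), and Ebf1, an early B cell factor, at 5767 and 4663 CPM, 0.31 (0.26 to 0.35). Il7r was at 434 and 260 CPM, 0.74 (0.56 to 0.92), and Rag1 at 107 and 78.1 CPM, 0.45 (0.10 to 0.81), both short of 2-fold. Without 7 outlying cells, described with the 2-fold differences, the ratios were 0.05 for Ighm, 0.17 for Ebf1, 0.55 for Il7r, 0.22 for Rag1 and -0.32 for Fcer2a.

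By lists, of the 26 BCR signalling genes none passed 2-fold in either direction, beside 0.184% of all 4888 genes with at least 100 UMIs higher and 2.78% lower, shares at which few calls would fall in a list of this size. The median ratio of these genes was 0.08. The 13 class II genes also had 0 calls, with a median of -0.04, and 17 follicular genes 0, with a median of -0.01. Medians were 0.31 for transitional and immature, 0.37 for pro-B and pre-B and 0.20 for cell cycle genes, and -0.45 for activation and early response, -0.42 for type I interferon response and -0.34 for NF-kB genes, beside -0.01 over all 9447 genes with at least 20 UMIs, the limit used for the medians. Without the 7 cells these 6 medians moved to 0.20, 0.20, 0.10, -0.20, -0.30 and -0.12. Of the early response genes, Fos was at 72.7 and 136 CPM, -0.90 (-1.25 to -0.56), Junb at 357 and 509 CPM, -0.51 (-0.67 to -0.35), and Cd83 at 169 and 227 CPM, -0.42 (-0.66 to -0.19). Without the 7 cells Fos stood at -0.42, Junb at -0.20 and Cd83 at -0.41.

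A few cells gave most of the differences past 2-fold. Of the 4888 genes, 9 (0.184%) were 2-fold or more higher in GA and 136 (2.78%) lower. More than 50% of the UMIs of the library with the higher level came from 5 cells in 5 of the 9 higher and 124 of the 136 lower genes, against 211 of all 4888. The 7 cells that stood apart were 6 with 20 or more UMIs of Lyz2, the lysozyme of myeloid cells (147 in the GA cell and 555, 452, 369, 327 and 215 in control cells) and a control cell of 93262 UMIs. The GA cell and 4 of the 6 control cells had the highest doublet scores, as did 5 GA and 9 control selected cells in all. These 7 cells held 1.72% of UMIs of GA and 13.5% of UMIs of control Ighd-positive B cells. Without them 4 genes were higher and 12 lower of 4545, and 8 of those 12 were among the 136.

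The genes with the lowest ratios among those found in at least 20 cells show this. Lyz2 had 209 UMIs in GA and 2022 in control, of which 1918 were in 5 cells, a log2 ratio of -3.16 (-3.37 to -2.96). Icam1, an adhesion receptor, had 26 and 270, of which 245 were in 5 control cells, -3.26 (-3.91 to -2.68). Rbpms, Adgrl2, Arhgap31, Ier3, Grk5, Car2, Ifitm3 and Hspa1a completed the 10, at -3.22 to -2.69. Without the 7 cells Lyz2 stood at -0.78, but most of these cells were chosen for their Lyz2 UMIs, so this value follows in part from that choice. Icam1 stood at -0.33 without them, Rbpms at -1.37, Adgrl2 at -0.43, Arhgap31 at -0.85 and Grk5 at -0.07, while Ier3 turned to 0.0018 and Ifitm3 to 0.57. The heat shock gene Hspa1a, at -2.69, stood at -1.73 without the 7 cells, and the carbonic anhydrase Car2, at -2.82, at -3.01, but at -0.43 when the 5 cells richest in it were left out of each library.

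On the higher side, by the same limit, the haemoglobin genes led. Hba-a2 was at 370 CPM in GA and 28.6 in control, 3.69 (3.25 to 4.17), and Hbb-bs at 1409 and 232 CPM, 2.60 (2.44 to 2.77), with 2037 of its 2053 GA UMIs in 5 cells. Without the cell richest in each gene these ratios were 0.26 and -0.53, and without the highest doublet scores 0.30 and -0.62, so that the direction of Hbb-bs turned. Pf4 and Cxcl2 followed at 2.06 and 1.75, and both turned below 0 without the 7 cells. S100a9, a neutrophil alarmin, differed from these: it was found in 164 of 194 GA and 92 of 202 control cells, at 294 and 136 CPM, 1.12 (0.88 to 1.36), with 46 of 429 GA and 106 of 214 control UMIs in 5 cells. Without the 7 cells it stood at 0.98, short of 2-fold. In cells of the neither state alone S100a9 had 211 UMIs in GA and 71 in control. Its log2 ratio there was 1.798 (1.403 to 2.207), past 2-fold. The selection had limited S100a9 and S100a8 to 3% of a cell's UMIs, and the part of free neutrophil RNA was not tested.

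**Figure D5:**
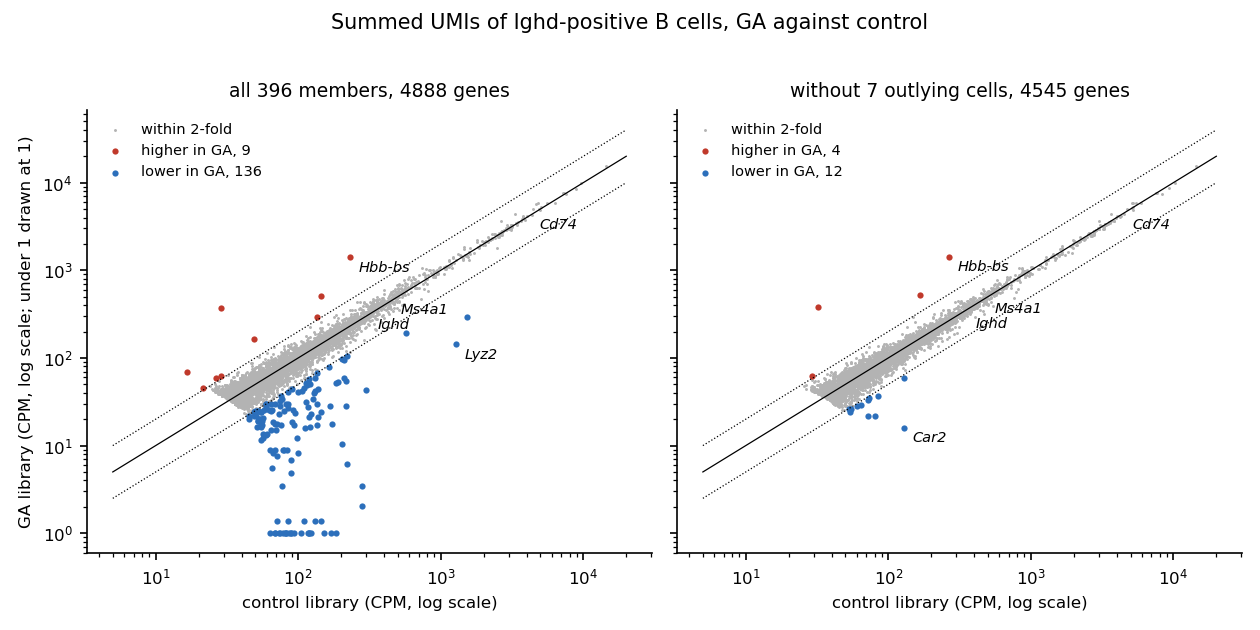
CPM per gene in control (horizontal) and GA (vertical) Ighd-positive B cells on log axes, for all 396 cells and without the 7 outlying cells, with dotted lines at 2-fold and values under 1 CPM drawn at 1. The cloud of genes far below the lower line with all cells was mostly gone without the 7 cells, when 12 genes with at least 100 UMIs were past it.

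Markers of other cell types moved with those counts. The 16 macrophage and monocyte markers summed to 799 CPM in GA and 3415 in control, with Apoe the most abundant, and 6 of the 8 with at least 100 UMIs were 2-fold lower in GA; without the 7 cells the sums were 321 and 390. The 18 neutrophil markers, led by Lyz2, summed to 897 and 1710, and to 793 and 506 without those cells. Since 6 of the 7 cells were chosen for Lyz2, which is in both the macrophage and the neutrophil list, their removal had to lower these sums. Over the 12 neutrophil markers with at least 20 UMIs the median log2 ratio was 0.85, with 8 above 0, all cells included. Endothelial and pericyte markers summed to 308 and 738, and to 313 and 261 without the 7 cells, in the opposite order; Emcn and Cdh5, endothelial genes, had 239 and 130 UMIs in 2 cells and 1 cell of the control library, against 0 and 1 UMIs in GA. Erythroid markers, led by Hbb-bs, summed to 2639 and 784, and to 2685 and 901 without the 7 cells, with the dependence of Hbb-bs on single cells given above. The T cell gene Cd3e was at 0 in both libraries. Cells of the neither state alone gave 38 genes lower in GA, counted over the genes with at least 100 UMIs in those cells. That set is smaller than the 4888 genes of the main count, so 38 is not comparable with the 136 lower genes there. The part of doublets and of free RNA in these values was not tested.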

How the data were processed

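The authors aligned the reads to mm10 (GRCm38) and deposited UMI counts per gene and cell (Cell Ranger 7.0.1 per the file headers). The members and the 35 gene lists were chosen with earlier results of these data known. Cells with 500 to 140000 UMIs, 200 to 9500 genes and at most 15% mitochondrial UMIs were kept. Counts were summed per library and class and given as CPM. Intervals were exact Poisson (CPM), Clopper-Pearson (shares) and conditional binomial (ratios). The 2 libraries shared no replicate, so no test was run. Genes named were the 10 highest and 10 lowest ratios (at least 100 UMIs; for GA over control, found in at least 20 cells), the 8 most variable and members of the lists and markers. Doublets were not removed; leaving out the highest Scrublet scores (0.8% per 1000 barcodes) was an alternative. The limits of the 3 states (5 division UMIs, 1 Rag UMI) and the 7 outlying cells were set after seeing the data. Calculations were tested on simulated data. Python 3.11.15, NumPy 2.4.6, SciPy 1.17.1, pandas 2.3.3 and scanpy 1.11.5 were used. The labels give GA as 1.2 mg/kg for 1 week and the methods as 2 mg/kg for 4 weeks; the labels were followed. Some genes are not reported here.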

Additional observations from a re-analysis of the deposited data

How the results depend on the processing

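No paired analysis was possible because each condition had 1 library, and no result had a test, so calls mean 2-fold only. The ratio of shares of all cells, GA over control, was 0.758 to 0.915 under the alternatives run. Cell numbers were 100 and 106 (GA and control) with Ighd at 2 or more, 61 and 61 with 3 or more, 85 and 100 after thinning to 2000 UMIs, and 113 and 125 in the neither state.

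Genes higher in GA numbered 38 with at least 50 UMIs, 5 with at least 200, 5 without the highest Scrublet scores, 5 thinned, 4 without the outlying cells and 26 without the 5 cells richest in each gene. Genes lower numbered 75 by mean CPM per cell, 304 with at least 50 UMIs, 47 with at least 200, 2 thinned, 71 without the richest cell of each gene, 38 in the neither state, 45 without the largest control cell, 12 without the outlying cells and 35 without the 5 richest cells. Against Ighd-negative cells, 212 genes were higher and 373 lower with Ighd at 2 or more, 61 and 18 thinned, and 90 lower without members of 20 or more Lyz2 UMIs. Kappa shares were 69.8% and 68.0% at 75% dominance, 34% and 30% with at least 30 light chain UMIs, and 33.3% and 31.3% in the neither state; mixed shares were 22.3% and 24.6%, 58% and 62.7%, and 59.5% and 63.5%. A theta of 10 gave 483 variable genes. Each count of higher or lower genes was taken over the genes that passed the UMI limit under that alternative. The number of such genes can differ between alternatives, so the counts are not shares and cannot be compared directly. Apart from changes set by fewer cells or genes, the cause was not tested.

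Log2 ratios of GA over control that reversed were Hbb-bs -0.62 and Pf4 -0.95 without the highest Scrublet scores; Pf4 -1.81 and Cxcl2 -1.40 with Ighd at 2 or more; Adgrl2 0.37 and Ier3 0.22 thinned; Hbb-bs -0.53, Pf4 -0.95 and Cxcl2 -0.65 without the richest cell; Pf4 -0.23, Cxcl2 -1.70 and Efcab11 -0.77 in the neither state; Pf4 -0.98 and Cxcl2 -0.82 without members of 20 or more Lyz2 UMIs; Pf4 -0.86, Cxcl2 -0.89, Ier3 0.0018 and Ifitm3 0.57 without the outlying cells; and Hbb-bs -0.64, Pf4 -1.21, Cxcl2 -0.11 and Adgrl2 0.33 without the 5 richest. Against Ighd-negative cells the reversed smaller ratios, with 0 for libraries that differ in direction, were Hbb-bt, Hba-a1 and Hbb-bs at 0 with Ighd at 2 or more, at -0.84, -1.54 and -0.63 without the highest Scrublet scores, and at 0, with Prtn3 at 0, in the neither state, and Slc40a1 and Itgad at 0 without members of 20 or more Lyz2 UMIs. The pooling of 5 mice per library limits every comparison of GA and control.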

Other observations

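Other B cell gene lists ranged widely in level in Ighd-positive B cells. Germinal centre and switched B cell genes had 149 UMIs in GA and 220 in control over 20 genes, with Bcl6 the most abundant, and 1 of them reached 100 UMIs. Over the 6 with at least 20 UMIs the median log2 ratio of GA over control was -0.85, with 1 above 0. This median was -0.95 without the 7 outlying cells. Of 5 BAFF and APRIL receptors and ligands, 2 had no UMI in either library, and Tnfrsf13c, the BAFF receptor, led a sum of 312 and 283 CPM. Marginal zone genes, led by Plac8, summed to 989 and 1009 CPM. B-1 cell genes, led by S100a6, summed to 235 and 505 CPM, which became 169 and 192 without the 7 outlying cells. Their median log2 ratio of GA over control was -0.73 over 9 genes, and -0.45 without those cells. S100a6 was at -1.97 in log2 ratio of GA over control and at -0.60 without those cells. Plasma cell genes summed to 1404 and 1305 CPM, led by Sec11c, and B cell cytokines, led by Tgfb1, to 676 and 615 CPM. None of the 28 B cell transcription factors with at least 100 UMIs, led by Ebf1, was past 2-fold, with a list median of 0.09, and the immunoglobulin constant regions, led by Igkc, had a median of 0.07, which was -0.06 without the 7 cells.

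Signalling and stress gene lists had these medians of GA over control. Toll-like receptors and adaptors had a median log2 ratio of -0.03, Bcl2 family genes -0.22, trafficking receptors -0.24, unfolded protein response genes -0.04, glycolysis and hypoxia genes -0.27, and glucocorticoid response genes -0.49. Without the 7 cells these 6 medians were -0.01, -0.06, -0.05, -0.02, -0.10 and -0.05. Hedgehog receptors and Gli factors, led by Sufu, had 110 and 91 UMIs over 11 genes, with 4 at 0 and a median of 0.59 over the 2 genes with at least 20 UMIs. Neuropeptide and adrenergic receptors, led by Calcrl, had 57 and 121 UMIs over 12 genes, with 7 at 0 and a median of -0.995 over 3 genes, which was -0.36 without the 7 cells. Of 13 heat shock and dissociation genes with at least 100 UMIs, 3 (Hspa1a, Hspa1b and Atf3) were 2-fold lower in GA, beside 2.78% of all genes, and 2 of 12 without the 7 cells; the median over the list was -0.20. Mesenchymal markers, led by Col1a1, summed to 471 and 823 CPM, T and NK cell markers to 143 and 130 CPM with 9 of 14 at 0, and plasmacytoid dendritic cell markers, led by Ly6d, which B cells also express, to 2010 and 2069 CPM.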
